A study of Mus musculus with 18 samples.

Results

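The 10 genes described here encode classical MHC class I and the machinery that supplies it with peptide: the heavy chains H2-K1 and H2-D1, the light chain B2m, the transporter subunits Tap1 and Tap2, the loading factor Tapbp, the immunoproteasome subunits Psmb8, Psmb9 and Psmb10, and the regulator Nlrc5. They were taken by gene name from a table of read counts for 56748 mouse genes in 18 libraries. All 10 genes passed the filter on low counts. The libraries came from bone marrow-derived macrophages, grown with L929 culture supernatant and treated on day 7 for 24 h in serum-free IMDM. TLR4-knockout (KO) C57BL/6J macrophages received GlcNAc-MurNAc (GM), MurNAc-D-Ala-L-Gln (MDP) or water, and wild-type (WT) C57BL/6J macrophages received the same GM, MDP or water, with 3 libraries in each of the 6 groups. The series title calls GM a TLR4 agonist of the gut microbiota. Doses, the knockout allele, and the number of mice or cultures behind the libraries are not given in the sources used here. The titles call the replicates biological, but if they share mice or cultures the p-values measure only the spread between libraries, which may be technical.

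MHC class I molecules show peptides from the cell's own proteins to CD8+ T cells. The proteasome cuts the proteins, TAP1 and TAP2 pump the peptides into the endoplasmic reticulum, tapasin (Tapbp) holds the transporter next to an empty heavy chain, and β2-microglobulin (B2m) completes the molecule. In the immunoproteasome, PSMB8, PSMB9 and PSMB10 replace the constitutive catalytic subunits PSMB5, PSMB6 and PSMB7, and interferons are known inducers of these genes. NLRC5 acts with factors bound at the X2 and Y boxes of class I promoters, where it plays the part that CIITA plays at class II promoters. Muramyl dipeptide, in its L-Ala-D-isoGln form, is the peptidoglycan ligand of NOD2 (the labels spell the dipeptide of MDP as above), and TLR4 is the receptor of lipopolysaccharide.

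Promoter windows from RefSeq (GRCm38.p6, 250 bases before to 50 bases after the annotated start) were given for 8 of the 10 genes, and Tap2 and Nlrc5 had no entry. The windows of both heavy chains, B2m, Tap1 and Psmb8 are shown, 5′ to 3′ on the strand of the gene. Those of Tapbp, Psmb9 and Psmb10 were searched too and are not shown. Capitals mark 5 motifs searched on both strands: TGACG (X2 box core), ATTGG (Y box core), GAAANNGAA (core of the interferon-stimulated response element), TTCNNNGAA (gamma-activated site) and GGGNNTTCC (NF-kB core).
H2-K1, chr17:34000298-34000597, minus strand: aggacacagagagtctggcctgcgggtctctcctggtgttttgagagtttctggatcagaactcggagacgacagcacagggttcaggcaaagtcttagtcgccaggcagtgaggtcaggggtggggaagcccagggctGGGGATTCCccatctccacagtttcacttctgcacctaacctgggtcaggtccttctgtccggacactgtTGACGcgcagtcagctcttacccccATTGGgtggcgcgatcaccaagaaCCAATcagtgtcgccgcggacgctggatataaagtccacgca
H2-D1, chr17:35262844-35263143, plus strand: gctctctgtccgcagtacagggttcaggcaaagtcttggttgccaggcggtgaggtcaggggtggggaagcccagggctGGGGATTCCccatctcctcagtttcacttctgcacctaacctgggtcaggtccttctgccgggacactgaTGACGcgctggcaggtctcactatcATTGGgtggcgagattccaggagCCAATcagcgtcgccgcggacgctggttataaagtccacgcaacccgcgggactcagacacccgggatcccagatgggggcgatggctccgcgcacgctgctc
B2m, chr2:122147437-122147736, plus strand: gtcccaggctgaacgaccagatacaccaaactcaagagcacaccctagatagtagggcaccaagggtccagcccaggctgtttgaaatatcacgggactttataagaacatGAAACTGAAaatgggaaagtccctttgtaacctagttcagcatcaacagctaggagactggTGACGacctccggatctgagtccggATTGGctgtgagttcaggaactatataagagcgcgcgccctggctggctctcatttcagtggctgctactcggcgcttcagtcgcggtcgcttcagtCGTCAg
Tap1, chr17:34187306-34187605, plus strand: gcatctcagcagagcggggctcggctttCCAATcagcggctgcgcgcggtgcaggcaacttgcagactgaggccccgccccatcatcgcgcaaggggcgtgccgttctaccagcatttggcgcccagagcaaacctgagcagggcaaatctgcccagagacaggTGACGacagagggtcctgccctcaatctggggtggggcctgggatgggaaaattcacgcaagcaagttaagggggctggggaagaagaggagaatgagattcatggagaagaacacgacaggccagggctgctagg
Psmb8, chr17:34197945-34198244, plus strand: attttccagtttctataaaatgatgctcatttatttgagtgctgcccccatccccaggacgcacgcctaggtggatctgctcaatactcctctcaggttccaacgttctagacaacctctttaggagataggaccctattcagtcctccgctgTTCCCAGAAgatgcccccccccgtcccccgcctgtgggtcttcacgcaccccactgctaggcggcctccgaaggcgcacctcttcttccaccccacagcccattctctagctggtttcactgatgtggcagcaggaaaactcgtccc

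The X2 and Y box cores stood together in 5 of the 8 windows, those of H2-K1, H2-D1, B2m, Tap1 and Psmb9, and in 7.73% of the 32851 mouse windows in the table. In H2-K1, H2-D1 and B2m the Y core began exactly 25 bases after the X2 core, on the same strand. That pair at that spacing, looked for after the 3 positions were seen, was found in 31 of the 32851 windows (0.0944%). These 31 include the windows of H2-K1, H2-D1 and B2m, from which the spacing was taken. One belonged to the non-classical heavy chain H2-M3, and others to genes such as Calu, Hnrnpf, Nasp and Per1. The NF-kB core was found in the windows of H2-K1 and H2-D1 and in 5.82% of all windows. The interferon-stimulated response element core was found in B2m (8.56% of all windows) and the gamma-activated site in Psmb8 (8.3% of all windows). The X2 core was in 5 of the 8 windows and 20.81% of all windows, and the Y core in 6 of the 8 and 37.41% of all windows. The Psmb10 window held none of the 5 motifs and the Tapbp window held 2 Y cores. H2-K1 has a second annotated start whose window holds the same motifs, and the Tap1 and Psmb9 windows share 275 bases, since these neighbours are read in opposite directions. The X2 and Y cores of Tap1 and Psmb9 are the same bases read from opposite strands, so that pair is counted in both windows. A match is a description of letters and not evidence of a bound factor.

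Of the 10 genes, 7 lie in the mouse MHC on chromosome 17 of GRCm39, the build of the counts. They are H2-K1 (34214991 to 34219321), Tapbp (34134873 to 34148266), Psmb9 (34400961 to 34406738), Tap1 (34406527 to 34416199), Psmb8 (34416695 to 34420428), Tap2 (34422501 to 34435295) and H2-D1 (35481706 to 35486475). B2m is on chromosome 2 (121978167 to 121983564), and Psmb10 (106662367 to 106665076) and Nlrc5 (95160984 to 95253900) are on chromosome 8. The Tap1 and Psmb9 genes overlap by 212 bases on opposite strands. The libraries were directional but whether the counting used strand is not given, so reads in that stretch may fall to either gene. H2-K1 and H2-D1 are close relatives of each other and of the non-classical heavy chains, so the split of reads among them is uncertain, and their sum is given beside them.

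The total gene count per library ran between 15532973 and 21128507. Tlr4, the targeted gene, had 36.5 to 39.5 CPM (the count of a gene scaled to its TMM-adjusted library total) in KO GM, 48.2 to 49.3 CPM in KO MDP and 46.3 to 52.9 CPM in KO water libraries, against 179.3 to 192.2 CPM in WT GM, 117.5 to 131.2 CPM in WT MDP and 148.9 to 229.5 CPM in WT water libraries. Remaining Tlr4 reads in the knockout were not placed along the gene here. The 8 macrophage markers were detected in every library, with a summed level of 24060 to 32440 CPM. The KO groups were more even than the WT groups, with a biological coefficient of variation of 6.13% in KO GM, 6.49% in KO MDP and 5.71% in KO water, against 27.6% in WT GM, 8.11% in WT MDP and 35.5% in WT water. WT water replicate 3 stood apart on the second principal component, at -37.16, against -1.32 and -1.95 for the other WT water libraries. In WT GM, replicate 2 was at 11.81 on that component, against -6.69 and -13.5 for replicates 1 and 3.

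Levels of different genes were compared per unit of transcript length (FPKM). In KO water libraries B2m came first (2970 ± 83.4 FPKM), followed by H2-D1 (1060 ± 54.7), H2-K1 (475 ± 31.5), Tapbp (148 ± 7.14), Psmb8 (35.8 ± 1.87), Psmb10 (30.5 ± 2.6), Tap2 (23.4 ± 0.992), Tap1 (18.5 ± 0.987), Psmb9 (11.5 ± 0.966) and Nlrc5 (4.84 ± 0.192 FPKM, mean ± SD, n = 3 each). No neighbours in that order overlapped in KO water or KO GM, and in KO MDP only Tap2 (25.1 ± 0.246 FPKM) and Tap1 (24.4 ± 1.96 FPKM) did. The order by mean was the same in all 6 groups, but in the WT groups neighbours from Psmb8 down overlapped in part. In WT water the overlapping neighbours were Psmb8 and Psmb10, Psmb10 and Tap2, Tap1 and Psmb9, and Psmb9 and Nlrc5.

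**Figure D1:**
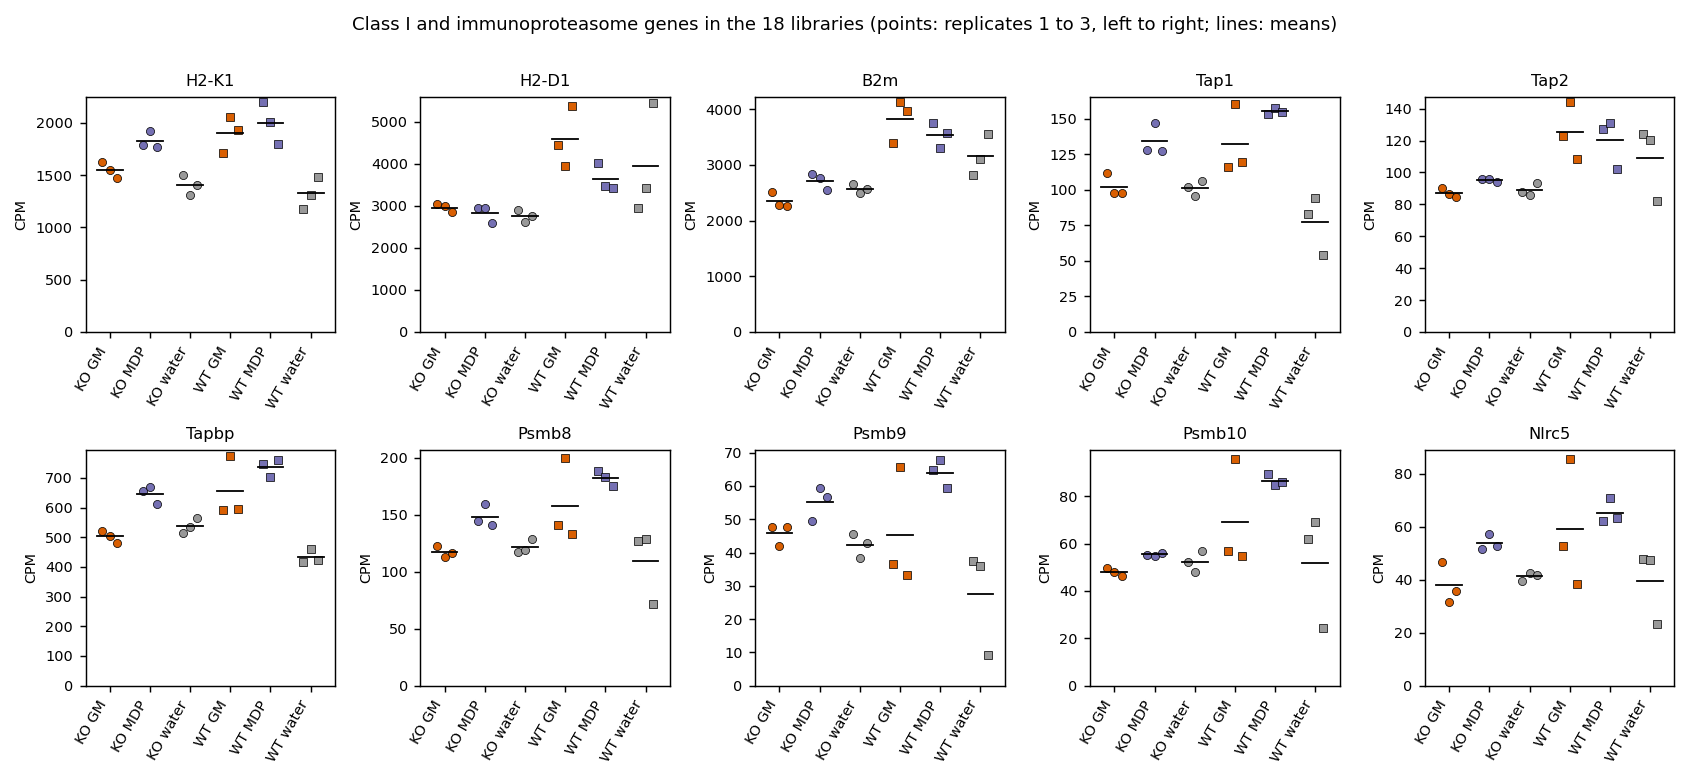
TMM-scaled CPM (y axis, linear, from 0) of each of the 10 genes in all 18 libraries, by group (x axis), with circles for KO, squares for WT and a line at the mean. Tapbp in WT MDP (704.1 to 759.4 CPM) lies clear of WT water (415.1 to 462.0 CPM), while 1 WT water library lies far below the other libraries of its group for Psmb9 (9.075 CPM).

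MDP raised 6 of the 10 genes in KO macrophages and 3 in WT macrophages. In KO H2-K1, Tap1, Tapbp, Psmb8, Psmb9 and Nlrc5 rose, by 0.26 to 0.41 on the log2 scale, and none of the 10 fell. Across all genes tested, 9.17% rose and 19.2% changed in either direction (edgeR quasi-likelihood test, Benjamini-Hochberg adjusted p under 0.05). In WT Tapbp, Tap1 and H2-K1 rose, by 0.59 to 1.01, and none of the 10 fell, where 4.62% of all genes rose and 8.34% changed. The median change of the 10 genes was 0.28 in KO and 0.73 in WT, against -0.005 in KO and -0.043 in WT over all genes tested. In these bulk samples, fewer cells of a type and less RNA per cell cannot be told apart. The same 6 genes passed in KO when any 1 of the 6 libraries was left out, but none of the 10 passed in KO when 1 spread was fitted to all 18 libraries, where 1.59% of all genes rose. In WT, that fit called 5 genes, adding Psmb8 and Psmb9 (11.2% of all genes rose). Without WT water replicate 3, 8 of the 10 rose in WT, all but H2-D1 and Tap2 (17.2% of all genes). Without WT water replicate 1 Tapbp alone passed, without WT water replicate 2 Tapbp and Tap1 passed, and none passed when any 1 WT MDP library was left out.

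GM left the 10 genes below the threshold in both genotypes. In KO macrophages none of the 10 passed with GM, where 7.86% of all genes changed, and the median change was -0.043 against -0.004 over all genes. With edgeR, 4 of the 10 had an unadjusted p under 0.05 in KO, DESeq2 called H2-K1 higher, and voom with a weight per group called B2m lower. In WT macrophages none of the 10 passed with GM, where 0.608% of all genes changed, although their median change was 0.53 against -0.035 over all genes. Of the 10, 3 (Tapbp, H2-K1 and Tap1) had an unadjusted p under 0.05 in WT, and DESeq2 called H2-K1 and Tapbp higher. The fit of all 18 libraries called H2-K1, Tapbp and Tap1 higher with GM in WT, where 3.94% of all genes rose. The GM and MDP comparisons of a genotype share their water libraries, so their values are set side by side below and not correlated.

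**Figure D2:**
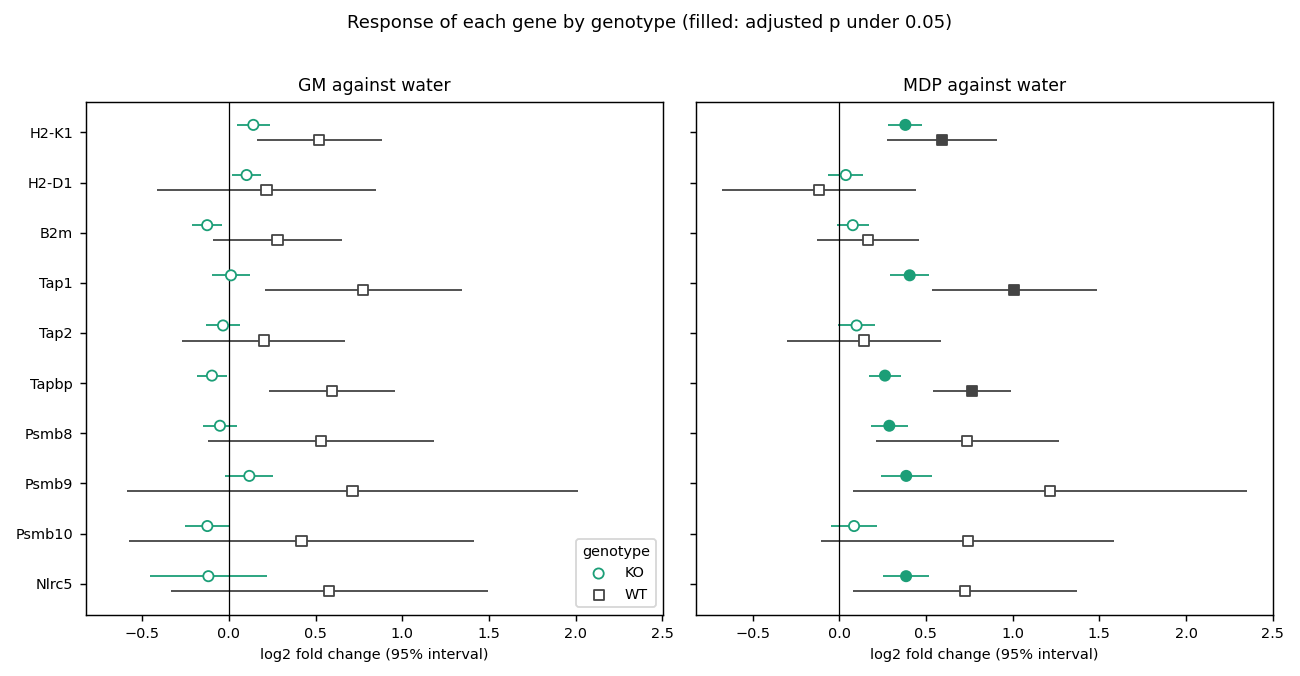
Log2 fold change (x axis, with 95% interval) of each gene for GM against water (left) and MDP against water (right), with KO as circles above WT as squares, filled where the adjusted p was under 0.05. In KO the MDP changes of H2-K1, Tap1, Tapbp, Psmb8, Psmb9 and Nlrc5 are filled, and no GM change is filled in either genotype.

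Of the heavy chains, H2-K1 rose with MDP and H2-D1 did not pass. H2-K1 had 1626, 1545 and 1468 CPM in KO GM, 1787, 1923 and 1771 CPM in KO MDP, and 1499, 1309 and 1401 CPM in KO water libraries. It had 1715, 2056 and 1927 CPM in WT GM, 2198, 2004 and 1792 CPM in WT MDP, and 1172, 1313 and 1486 CPM in WT water libraries. All MDP libraries were above all water libraries in each genotype, and so were all WT GM libraries. With MDP, H2-K1 changed by 0.38 ± 0.05 in KO (log2 ± SE, adjusted p = 5.97e-08, edgeR) and by 0.59 ± 0.13 in WT (adjusted p = 0.0438). With GM it changed by 0.14 ± 0.05 in KO (adjusted p = 0.0575) and by 0.52 ± 0.15 in WT (adjusted p = 0.422), so neither passed.

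H2-D1 had 3044, 2982 and 2840 CPM in KO GM, 2945, 2947 and 2592 CPM in KO MDP, and 2896, 2607 and 2762 CPM in KO water libraries. It had 4441, 3933 and 5376 CPM in WT GM, 4019, 3467 and 3428 CPM in WT MDP, and 2955, 3432 and 5449 CPM in WT water libraries. The treated and water libraries overlapped in both genotypes, and WT water replicate 3 held the highest value of all. With MDP, H2-D1 changed by 0.04 ± 0.05 in KO (adjusted p = 0.685) and by -0.12 ± 0.23 in WT (adjusted p = 0.786, edgeR), with a 95% interval of -0.67 to 0.44 in WT. The WT value turned to 0.19 without WT water replicate 3. Summed over all 17 class I heavy chain rows, counts rose with MDP in KO (0.23 ± 0.05, adjusted p = 0.000199) and did not pass in WT (0.20 ± 0.19, adjusted p = 0.541, edgeR).

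The FPKM ratio of H2-D1 to H2-K1 averaged 2.18 ± 0.0399 in KO GM, 1.76 ± 0.106 in KO MDP and 2.24 ± 0.0346 in KO water libraries (SD, n = 3 each). In WT it averaged 2.77 ± 0.523 with GM, 2.08 ± 0.104 with MDP and 3.34 ± 0.724 with water. All MDP libraries lay below all water libraries in each genotype, from 1.67 to 1.88 against 2.2 to 2.27 in KO, and from 1.97 to 2.18 against 2.87 to 4.18 in WT.

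B2m did not pass the threshold with either compound against water. It had 2519, 2285 and 2261 CPM in KO GM, 2835, 2758 and 2544 CPM in KO MDP, and 2652, 2500 and 2557 CPM in KO water libraries. It had 3397, 4129 and 3961 CPM in WT GM, 3751, 3305 and 3568 CPM in WT MDP, and 2810, 3107 and 3546 CPM in WT water libraries. Treated and water libraries overlapped in both genotypes. The MDP change was 0.08 ± 0.05 in KO (adjusted p = 0.268) and 0.17 ± 0.12 in WT (adjusted p = 0.434), and the GM change was -0.13 ± 0.04 in KO (adjusted p = 0.0621) and 0.28 ± 0.16 in WT (adjusted p = 0.965, edgeR). The H2-K1 to B2m ratio in FPKM was 0.192 ± 0.00491 in KO GM, 0.197 ± 0.0112 in KO MDP and 0.16 ± 0.00613 in KO water libraries, and 0.145 ± 0.00272 in WT GM, 0.165 ± 0.0162 in WT MDP and 0.123 ± 0.000808 in WT water libraries. All GM and all MDP libraries lay above the water libraries of their genotype in this ratio.

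Of the 2 transporter subunits, Tap1 rose with MDP and Tap2 did not pass. Tap1 had 111.8, 97.55 and 97.52 CPM in KO GM, 128.3, 147.1 and 127.6 CPM in KO MDP, and 102.2, 95.89 and 106.6 CPM in KO water libraries. It had 116.2, 160.4 and 119.7 CPM in WT GM, 153.4, 157.9 and 155.1 CPM in WT MDP, and 83.19, 94.38 and 54.28 CPM in WT water libraries. All MDP libraries were above all water libraries in both genotypes, and all GM libraries were above all water libraries in WT. Tap1 rose with MDP by 0.41 ± 0.06 in KO (adjusted p = 3.94e-07) and by 1.01 ± 0.20 in WT (adjusted p = 0.0307, edgeR). Its GM change was 0.01 ± 0.05 in KO (adjusted p = 0.941) and 0.77 ± 0.24 in WT (adjusted p = 0.48).

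Tap2 had 89.95, 86.30 and 84.35 CPM in KO GM, 95.70, 96.20 and 94.06 CPM in KO MDP, and 87.79, 86.15 and 93.15 CPM in KO water libraries. It had 122.7, 144.4 and 108.6 CPM in WT GM, 127.0, 131.3 and 102.0 CPM in WT MDP, and 124.3, 120.4 and 82.12 CPM in WT water libraries. In KO the MDP libraries were all above the water libraries by a narrow margin, and in WT they overlapped. The MDP change of Tap2 was 0.10 ± 0.05 in KO (adjusted p = 0.206) and 0.14 ± 0.19 in WT (adjusted p = 0.671, edgeR), so neither passed. The Tap1 to Tap2 ratio in FPKM was 0.812 ± 0.0408 in KO GM, 0.973 ± 0.0722 in KO MDP and 0.787 ± 0.0177 in KO water libraries. In WT it was 0.727 ± 0.0637 with GM, 0.905 ± 0.126 with MDP and 0.487 ± 0.0473 with water, where all GM and all MDP libraries lay above all water libraries.

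Tapbp, the tapasin gene, had the smallest adjusted p of the 10 genes for MDP in WT. It had 522.0, 504.6 and 482.2 CPM in KO GM, 656.8, 669.0 and 612.9 CPM in KO MDP, and 515.4, 535.0 and 564.9 CPM in KO water libraries. It had 593.7, 775.6 and 595.0 CPM in WT GM, 748.2, 704.1 and 759.4 CPM in WT MDP, and 415.1, 462.0 and 424.0 CPM in WT water libraries. Every GM and MDP library in WT was above every water library, with the 3 WT water libraries close together. Tapbp rose with MDP by 0.26 ± 0.05 in KO (adjusted p = 3.01e-05) and by 0.77 ± 0.10 in WT (adjusted p = 0.00726, edgeR). The GM change was -0.10 ± 0.04 in KO (adjusted p = 0.17) and 0.59 ± 0.15 in WT (adjusted p = 0.315).

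The immunoproteasome subunits rose with MDP in KO, apart from Psmb10. Psmb8, which replaces PSMB5, had 122.3, 112.9 and 116.2 CPM in KO GM, 144.0, 159.4 and 141.3 CPM in KO MDP, and 117.3, 118.6 and 128.5 CPM in KO water libraries. It had 140.5, 200.1 and 132.6 CPM in WT GM, 188.5, 182.6 and 175.5 CPM in WT MDP, and 127.1, 128.5 and 71.93 CPM in WT water libraries. All MDP libraries were above all water libraries in both genotypes. The MDP change of Psmb8 was 0.29 ± 0.05 in KO (adjusted p = 4.81e-05) and 0.74 ± 0.22 in WT (adjusted p = 0.0935, edgeR). DESeq2 and voom called Psmb8 higher in WT too, and without WT water replicate 3 its change was 0.51 (adjusted p = 8.78e-07).

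Psmb9, which replaces PSMB6, had 47.68, 42.01 and 47.71 CPM in KO GM, 49.50, 59.47 and 56.60 CPM in KO MDP, and 45.54, 38.41 and 42.97 CPM in KO water libraries. It had 36.65, 65.62 and 33.15 CPM in WT GM, 64.70, 67.81 and 59.44 CPM in WT MDP, and 37.58, 36.05 and 9.075 CPM in WT water libraries. All MDP libraries were above all water libraries in both genotypes, and 1 GM library of WT stood with the MDP libraries. The MDP change of Psmb9 was 0.39 ± 0.07 in KO (adjusted p = 8.36e-05) and 1.21 ± 0.48 in WT (adjusted p = 0.169, edgeR), with a 95% interval of 0.08 to 2.35 in WT. Without WT water replicate 3 the WT change was 0.80 (adjusted p = 1.9e-07).

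Psmb10, which replaces PSMB7, had 49.52, 47.96 and 46.23 CPM in KO GM, 55.13, 54.86 and 56.25 CPM in KO MDP, and 52.08, 48.06 and 56.88 CPM in KO water libraries. It had 57.07, 95.90 and 54.83 CPM in WT GM, 89.33, 84.63 and 85.96 CPM in WT MDP, and 62.05, 69.11 and 24.35 CPM in WT water libraries. The MDP and water libraries overlapped in KO and did not in WT. The MDP change of Psmb10 was 0.09 ± 0.07 in KO (adjusted p = 0.433) and 0.74 ± 0.35 in WT (adjusted p = 0.242, edgeR). Without WT water replicate 3 the WT change was 0.40 (adjusted p = 0.000117). With GM the 3 subunits changed by -0.05, 0.12 and -0.12 in KO (Psmb8, Psmb9 and Psmb10) and by 0.53, 0.71 and 0.42 in WT, none past the threshold. The WT values for GM were 0.304, 0.295 and 0.08 without WT water replicate 3, and 0.32, 0.34 and 0.11 without WT GM replicate 2.

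Set against the constitutive subunits per unit of length, the Psmb8 to Psmb5 ratio in FPKM was 0.272 ± 0.0278 in KO GM, 0.338 ± 0.0163 in KO MDP and 0.324 ± 0.00616 in KO water libraries (SD, n = 3 each). In WT it was 0.375 ± 0.111 with GM, 0.521 ± 0.0198 with MDP and 0.287 ± 0.13 with water. The Psmb9 to Psmb6 ratio was 0.126 ± 0.0111 in KO GM, 0.167 ± 0.0166 in KO MDP and 0.124 ± 0.00565 in KO water, and 0.147 ± 0.0815 in WT GM, 0.225 ± 0.0199 in WT MDP and 0.105 ± 0.0714 in WT water. The Psmb10 to Psmb7 ratio was 1.06 ± 0.0242 in KO GM, 1.27 ± 0.0671 in KO MDP and 1.32 ± 0.105 in KO water, and 1.54 ± 0.607 in WT GM, 2.06 ± 0.0624 in WT MDP and 1.36 ± 0.756 in WT water. In KO all MDP libraries lay above all water libraries for Psmb9 to Psmb6 alone, and in WT they did in the 3 ratios. WT water replicate 3 was the lowest of its group in each, at 0.137 for Psmb8, 0.0236 for Psmb9 and 0.482 for Psmb10, against 0.361 and 0.363, 0.158 and 0.134, and 1.788 and 1.795 in the other WT water libraries. WT GM replicate 2 was the highest of its group in each, at 0.502, 0.241 and 2.23. All KO GM libraries lay below all KO water libraries in the Psmb8 and Psmb10 ratios. In the fits, Psmb5 (0.21 ± 0.05, adjusted p = 0.00467) and Psmb7 (0.18 ± 0.05, adjusted p = 0.0133, edgeR) rose with GM in KO, and Psmb5 rose with MDP in KO (0.23 ± 0.05, adjusted p = 0.00104), but in no case when 1 spread was fitted to all 18 libraries. Without KO GM replicate 2 neither passed with GM. No constitutive subunit passed in WT with either compound against water.

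**Figure D3:**
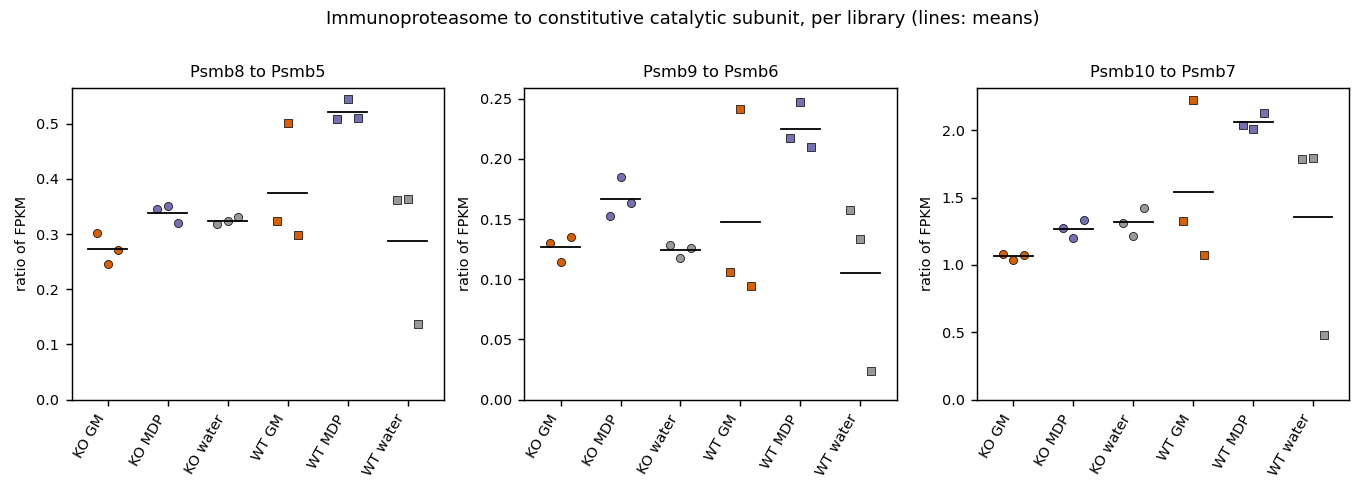
Ratio of FPKM (y axis, linear, from 0) of each immunoproteasome subunit to the constitutive subunit it replaces, in every library by group (x axis), with circles for KO, squares for WT and a line at the mean. WT MDP libraries lie at 0.509 to 0.544 for Psmb8 to Psmb5, while WT water libraries spread between 0.137 and 0.363.

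Nlrc5, the class I regulator, had 46.82, 31.62 and 35.79 CPM in KO GM, 51.67, 57.39 and 52.72 CPM in KO MDP, and 39.59, 42.68 and 41.61 CPM in KO water libraries. It had 52.84, 85.75 and 38.40 CPM in WT GM, 62.07, 70.83 and 63.13 CPM in WT MDP, and 47.92, 47.43 and 23.18 CPM in WT water libraries. All MDP libraries were above all water libraries in both genotypes, and the GM libraries overlapped with water in both. Nlrc5 rose with MDP in KO (0.39 ± 0.07, adjusted p = 1.9e-05), and its change in WT was 0.73 ± 0.27 (adjusted p = 0.153, edgeR), or 0.46 without WT water replicate 3 (adjusted p = 0.000104). Its GM change was -0.12 ± 0.14 in KO (adjusted p = 0.749) and 0.58 ± 0.38 in WT (adjusted p = 0.999), with WT values of 0.31 without WT water replicate 3 and 0.21 without WT GM replicate 2.

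Set directly against MDP, GM left 7 of the 10 genes lower in KO: Tapbp, Psmb8, Tap1, H2-K1, B2m, Psmb9 and Psmb10. Across all genes 8.32% were lower with GM than with MDP in KO and 16.4% differed in either direction. The compounds were given for the same time, and their doses are not given in the sources used here. Tapbp differed by -0.36 ± 0.05 (adjusted p = 3.93e-08), Tap1 by -0.39 ± 0.06 (adjusted p = 1.71e-05) and Psmb8 by -0.34 ± 0.05 (adjusted p = 1.45e-06, edgeR). H2-K1 differed by -0.24 ± 0.05 (adjusted p = 0.000145), B2m by -0.20 ± 0.05 (adjusted p = 0.00206), Psmb9 by -0.27 ± 0.07 (adjusted p = 0.00382) and Psmb10 by -0.21 ± 0.06 (adjusted p = 0.0119, edgeR). Nlrc5 (-0.50, adjusted p = 0.0844), Tap2 (-0.13, adjusted p = 0.0674) and H2-D1 (0.06, adjusted p = 0.446, edgeR) did not pass. All KO GM libraries lay below all KO MDP libraries for every gene of the 10 except H2-D1. The share of all genes separated in this way is not given here, so that count has no background. The fit of all 18 libraries called none of the 10 here, where it called 1.13% of all genes lower. Psmb10 did not pass without KO GM replicate 3, and Psmb9 did not pass without KO GM replicate 2 or without KO MDP replicate 2. Nlrc5 passed without KO GM replicate 1 or replicate 2, with DESeq2, with voom and with no filter on low counts.

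In WT, GM and MDP could not be separated over the 10 genes. None passed, where 10% of all genes differed, and none had an unadjusted p under 0.05 with edgeR, while DESeq2 called none. The differences of GM from MDP ran between -0.50 for Psmb9 (95% interval -1.08 to 0.08) and 0.33 for H2-D1 (95% interval -0.01 to 0.67). WT GM replicate 2 weighed on this comparison, with 65.62 CPM of Psmb9 against 36.65 and 33.15 CPM in the other WT GM libraries. Without it, Tapbp, Tap1, Psmb8, Psmb9, Psmb10 and Nlrc5 were lower with GM than with MDP, where 13.8% of all genes were lower. H2-D1 was higher, and the share of all genes that were higher is not given here, so that call has no background.

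Between genotypes under water, none of the 10 genes passed, where 14.6% of all genes differed. Of the 10, 2 had an unadjusted p under 0.05, Tapbp (0.31 ± 0.09, adjusted p = 0.0656) and B2m (-0.30 ± 0.11, adjusted p = 0.127, edgeR), and DESeq2 called Tapbp higher in KO. All KO water libraries lay above all WT water libraries for Tap1, Tapbp and Psmb9, and below them for H2-D1 and B2m. How many of all genes separate in this way is not given here. The fit of all 18 libraries called Tapbp higher and H2-D1 and B2m lower in KO, where 33.1% of all genes differed. Without WT water replicate 3, 9 of the 10 genes differed, 4 higher and 5 lower in KO, where 46.8% of all genes differed. Over the 10 genes the median difference was 0.07, against -0.03 over all genes.

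The difference between genotypes in the response to each compound was tested directly. For MDP, 1 of the 10 genes passed: Tapbp rose less in KO than in WT, with a difference of -0.50 ± 0.10 on the log2 scale (95% interval -0.72 to -0.28, adjusted p = 0.0119, edgeR). Across all genes 4.63% had a lower MDP response in KO and 7.97% differed in either direction. Tap1 (-0.60 ± 0.22, adjusted p = 0.117), Psmb9 (-0.83 ± 0.52, adjusted p = 0.354) and H2-K1 (-0.21 ± 0.15, adjusted p = 0.397, edgeR) did not pass. Without WT water replicate 3, 6 of the 10 had a lower MDP response in KO (H2-K1, Tapbp, Psmb8, Tap1, Psmb10 and Psmb9), where 14.1% of all genes did, and without WT water replicate 2 Tapbp and Tap1 did. For GM, none of the 10 passed, where 0.939% of all genes differed. Of the 10, 4 had an unadjusted p under 0.05 in edgeR (H2-K1, B2m, Tap1 and Tapbp), and DESeq2 called Tapbp. The GM response of Tapbp differed by -0.69 ± 0.15 (adjusted p = 0.071) and that of Tap1 by -0.76 ± 0.26 (adjusted p = 0.38, edgeR). Tapbp passed for GM without WT water replicate 3 and in the fit of all 18 libraries.

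The non-classical and class I-like heavy chains, relatives of H2-K1 and H2-D1 with more restricted ligands, included 12 tested genes of 15 listed. With MDP, 8 of the 12 rose in KO, where 9.17% of all genes rose, and 6 rose in WT, where 4.62% did, with none lower in either. The median MDP change of the 12 was 0.48 in KO and 0.85 in WT, and the median GM change was -0.065 in KO and 1.01 in WT. With GM in KO, H2-M2 rose (0.19 ± 0.05, adjusted p = 0.0294) and Mr1, which presents vitamin B metabolites, fell (-0.24 ± 0.06, adjusted p = 0.00576, edgeR), where 3.62% of all genes rose and 4.24% fell. The H2-M2 call was made in 8 of 12 alternatives and that of Mr1 in 10, neither in the fit of all 18 libraries, and H2-M2 not without KO water replicate 1 or 2 or KO GM replicate 2, Mr1 not without KO GM replicate 3. In KO the smallest adjusted p-values were those of Cd1d1, which presents lipids (0.91 ± 0.07, adjusted p = 1.19e-13), H2-M2 (1.10 ± 0.06, adjusted p = 4.35e-10), H2-T24 (0.46 ± 0.07, adjusted p = 1.09e-06) and H2-Q4 (0.38 ± 0.06, adjusted p = 3.39e-06, edgeR). In WT they were those of H2-T23, the Qa-1 heavy chain (0.68 ± 0.10, adjusted p = 0.011), H2-T22 (0.72 ± 0.11, adjusted p = 0.0149), H2-T24 (1.65 ± 0.33, adjusted p = 0.0319) and H2-M3, which presents formylated peptides (0.56 ± 0.12, adjusted p = 0.0335, edgeR). The fit of all 18 libraries called 2 of the 12 higher in KO, H2-T22 and Cd1d1, where 1.59% of all genes rose, and 9 of the 12 higher in WT, where 11.2% did. None of the 6 WT calls remained when any 1 WT MDP library was left out, and 9 of the 12 passed without WT water replicate 3, where 17.2% of all genes rose. With voom H2-M3 and H2-Q7 did not pass in WT.

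H2-M2 had 231.6, 245.2 and 224.5 CPM in KO GM, 404.9, 471.0 and 435.7 CPM in KO MDP, and 184.9, 207.6 and 221.4 CPM in KO water libraries. It had 255.8, 314.5 and 258.9 CPM in WT GM, 181.4, 172.9 and 166.2 CPM in WT MDP, and 48.48, 50.54 and 10.51 CPM in WT water libraries. MDP libraries were the highest in KO and GM libraries the highest in WT. GM against MDP differed by -0.90 ± 0.05 in KO (adjusted p = 1.53e-17) and by 0.67 ± 0.11 in WT (adjusted p = 0.0131, edgeR), and the WT call was lost without any 1 WT MDP library and in the fit of all 18 libraries. In KO, 8 of the 12 genes were lower with GM than with MDP, against 8.32% of all genes, among them Cd1d1 (-0.73), H2-Q4 (-0.49) and H2-T22 (-0.43), and the fit of all 18 libraries called H2-T22 alone. In WT, H2-M2 and H2-Q6 (1.17 ± 0.28, adjusted p = 0.0396, edgeR) were higher with GM than with MDP, against 5.59% of all genes, and H2-Q6 did not pass in the fit of all 18 libraries, without WT GM replicate 1 or without any 1 WT MDP library. H2-M2 was also higher in KO than in WT under water (2.49 ± 0.54, adjusted p = 0.0301, edgeR), a call lost with no filter on low counts and without WT water replicate 1, WT water replicate 2 or any 1 KO water library. H2-M3 was higher in KO under water too (0.69), called in 9 of 12 alternatives and lost without any 1 KO water library. Of all genes, 14.6% differed between genotypes under water.

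With GM in WT, H2-T22 was the 1 gene of the 12 that passed as higher (0.99 ± 0.13, adjusted p = 0.0319, edgeR), where 0.608% of all genes did. H2-M2 did not pass, though all its WT GM libraries lay above all its WT water libraries. H2-T22 had 95.47, 88.64 and 85.69 CPM in KO GM, 113.4, 132.2 and 117.9 CPM in KO MDP, and 90.02, 83.76 and 99.42 CPM in KO water libraries. It had 185.0, 200.3 and 203.6 CPM in WT GM, 172.7, 154.9 and 163.2 CPM in WT MDP, and 86.97, 109.7 and 100.7 CPM in WT water libraries. The WT GM libraries were far above the WT water libraries, and the KO GM libraries were not. The GM response of H2-T22 was lower in KO than in WT, with a difference of -1.004 ± 0.14 (adjusted p = 0.00583, edgeR), which held in all 18 alternatives. The GM rise in WT itself was called in 7 of 12 alternatives, and not without WT water replicate 1 or 2 or any 1 WT GM library. The fit of all 18 libraries called 10 of the 12 higher with GM in WT, where 3.94% of all genes rose, and DESeq2 called 7, where 2.19% did.

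**Figure D4:**
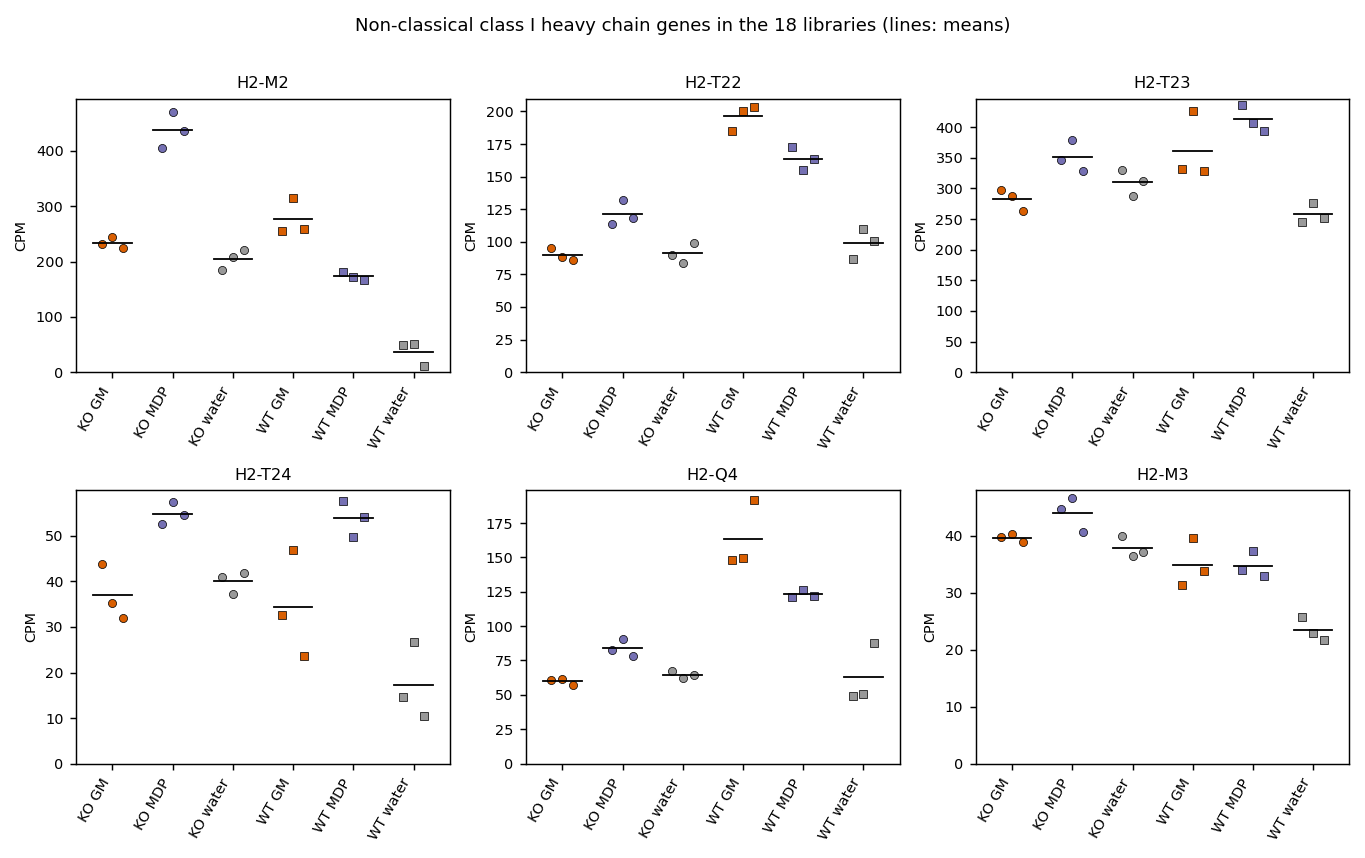
TMM-scaled CPM (y axis, linear, from 0) of 6 non-classical heavy chain genes in all 18 libraries by group (x axis), with circles for KO, squares for WT and a line at the mean. H2-M2 is highest with MDP in KO (404.9 to 471.0 CPM) and with GM in WT (255.8 to 314.5 CPM), and H2-T22 with GM is high in WT alone.

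Of 10 other peptide loading and endoplasmic reticulum genes, Tapbpl had the smallest adjusted p in WT with each compound. It encodes TAPBPR, a tapasin relative that edits the peptides of class I. It had 25.4, 23.12 and 21.28 CPM in KO GM, 30.35, 32.42 and 30.88 CPM in KO MDP, and 24.6, 24.76 and 26.83 CPM in KO water libraries. It had 38.9, 46.07 and 37.73 CPM in WT GM, 45.54, 48.9 and 43.21 CPM in WT MDP, and 21.44, 20.95 and 20.47 CPM in WT water libraries. The 3 WT water libraries lay within a narrow range here, WT water replicate 3 included, and every treated WT library was above them. Tapbpl rose in KO with MDP (0.30 ± 0.08, adjusted p = 0.00453), and in WT with GM (0.96 ± 0.12, adjusted p = 0.0325) and with MDP (1.13 ± 0.10, adjusted p = 0.00261, edgeR). The GM rise in WT was not called with voom, without WT water replicate 1 or 2 or without any 1 WT GM library. Its response was lower in KO than in WT, with a difference of -1.09 ± 0.14 for GM (adjusted p = 0.00366) and of -0.83 ± 0.11 for MDP (adjusted p = 0.00109, edgeR), and both differences held in all 18 alternatives. The 1 other gene of this list to rise with MDP in KO was Ganab (0.16 ± 0.05, adjusted p = 0.0091, edgeR), where 9.17% of all genes rose. Ganab did not pass without KO water replicate 1. Neither KO call was made by the fit of all 18 libraries.

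Of the 11 other subunits of the 20S core, 4 rose with GM and 5 with MDP in KO, against 3.62% and 9.17% of all genes, led by Psma6 with GM (0.27 ± 0.05, adjusted p = 0.000229) and Psma1 with MDP (0.27 ± 0.05, adjusted p = 4.65e-05, edgeR), and none passed in WT. None of these 9 calls was made by the fit of all 18 libraries. Of 10 activators and assembly factors, Psme2, a subunit of the interferon-inducible PA28 cap, rose with MDP in WT (0.78 ± 0.11, adjusted p = 0.0108), as did Psmg4 (0.85 ± 0.15, adjusted p = 0.0196, edgeR), against 4.62% of all genes. Neither passed when any 1 WT MDP library was left out. Psmg4 did not pass with voom or without WT water replicate 1 or 2. The partner subunit Psme1 rose with MDP in KO (0.21 ± 0.06, adjusted p = 0.00484), as did Psme4 (0.14 ± 0.05, adjusted p = 0.0469, edgeR), against 9.17% of all genes. Neither was called by the fit of all 18 libraries. Psme1 did not pass without KO water replicate 2, and Psme4 passed in 3 of 12 alternatives.

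Among 15 transcription factors and partners known to act on these promoters, MDP raised 4 in KO and 3 in WT, against 9.17% of all genes in KO and 4.62% in WT. In KO these were Stat2 (0.61 ± 0.05, adjusted p = 7.95e-12), Irf8 (0.47 ± 0.05, adjusted p = 2.32e-09), Irf1 (0.30 ± 0.07, adjusted p = 0.000784) and Irf9 (0.22 ± 0.06, adjusted p = 0.00447, edgeR). Of the 4, the fit of all 18 libraries called Irf8 alone, and Irf9 did not pass without KO MDP replicate 2. In WT they were Irf8 (1.65 ± 0.12, adjusted p = 0.00187), Irf1 (1.67 ± 0.16, adjusted p = 0.00307) and Stat2 (1.04 ± 0.24, adjusted p = 0.0492, edgeR). The WT calls of Irf8 and Irf1 held in all 12 alternatives, and that of Stat2 was lost with size factors by relative log expression and without WT water replicate 1 or 2 or any 1 WT MDP library. With GM, Irf8 was the 1 factor to rise in WT (1.47 ± 0.15, adjusted p = 0.0195, edgeR), where 0.608% of all genes rose. That call was lost without WT water replicate 1 or 2 or WT GM replicate 1 or 3. In KO no factor rose with GM and Ciita, the class II regulator, was lower (-0.28 ± 0.06, adjusted p = 0.002, edgeR), though not in the fit of all 18 libraries. Set against MDP, GM left 6 of the 15 lower in KO, against 8.32% of all genes, led by Irf8 (-0.44), Stat2 (-0.77), Irf1 (-0.49) and Irf9 (-0.36), of which the fit of all 18 libraries called Irf8 alone. In WT it left Irf1 lower (-0.56 ± 0.14, adjusted p = 0.0444, edgeR), a call lost without WT GM replicate 1 or any 1 WT MDP library. The median MDP change of the 15 was 0.095 in KO and 0.21 in WT.

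IRF1 and IRF8 bind interferon-stimulated response elements, and the responses of their genes differed between genotypes. Irf1 had 44.82, 41.24 and 42.64 CPM in KO GM, 54.26, 64.08 and 61.93 CPM in KO MDP, and 49.74, 45.44 and 51.36 CPM in KO water libraries. It had 83.35, 112.7 and 82.79 CPM in WT GM, 136.7, 146.4 and 126.6 CPM in WT MDP, and 48.28, 47.07 and 33.81 CPM in WT water libraries. The water libraries of the 2 genotypes overlapped, and the treated libraries of WT were above every KO library. The Irf1 response was lower in KO than in WT, with a difference of -1.30 ± 0.21 for GM (adjusted p = 0.0151) and of -1.37 ± 0.18 for MDP (adjusted p = 0.001, edgeR). Irf8 had 163.0 to 163.5 CPM in KO GM, 209.7 to 240.7 CPM in KO MDP and 154.2 to 162.7 CPM in KO water libraries, and 329.0 to 398.9 CPM in WT GM, 386.9 to 424.5 CPM in WT MDP and 111.2 to 141.4 CPM in WT water libraries. The Irf8 response was lower in KO than in WT, with a difference of -1.43 ± 0.14 for GM (adjusted p = 0.000524) and of -1.18 ± 0.13 for MDP (adjusted p = 0.000569, edgeR). Both Irf8 differences and the MDP difference of Irf1 held in all 18 alternatives, and the GM difference of Irf1 in 14, not without KO water replicate 1 or 3 or KO GM replicate 2 or 3.

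Of the interferon genes, Ifnb1 and Ifng were looked at, and both fell below the filter on low counts and were not tested. Ifnb1, which encodes interferon-β, had 2, 0 and 4 reads in KO GM, 1, 2 and 2 reads in KO MDP, and 0, 0 and 1 reads in KO water libraries. It had 2, 1 and 0 reads in WT GM, 6, 4 and 7 reads in WT MDP, and 0, 0 and 0 reads in WT water libraries. In CPM each WT MDP library (0.2083 to 0.4528) was above every other library. Ifng, which encodes interferon-γ, had at most 2 reads in any library. Of the 7 tested receptor and kinase genes, Jak2, which signals from the interferon-γ receptor, rose with MDP in KO (0.95 ± 0.06, adjusted p = 2.65e-13), as did Ifnar2 (0.34 ± 0.05, adjusted p = 3.93e-06) and Ifnar1 (0.15 ± 0.05, adjusted p = 0.0155, edgeR), against 9.17% of all genes. The fit of all 18 libraries called Ifnar2 alone of these 3, and Ifnar1 did not pass without KO water replicate 1 or 2 or KO MDP replicate 2. With GM in KO, Ifngr1 (0.26 ± 0.04, adjusted p = 8.51e-05), Ifnar1 (0.18 ± 0.04, adjusted p = 0.00349), Jak2 (0.18 ± 0.04, adjusted p = 0.00432) and Ifnar2 (0.18 ± 0.05, adjusted p = 0.0122, edgeR) rose, against 3.62% of all genes. None of these GM calls was made by the fit of all 18 libraries, and Jak2 did not pass without KO water replicate 1. None of the 7 passed in WT with either compound against water. Jak2 changed in WT by 0.89 ± 0.33 with MDP (adjusted p = 0.152) and by 0.89 ± 0.40 with GM (adjusted p = 0.845, edgeR). The MDP response of Jak2 in KO minus that in WT was 0.06 ± 0.37 (adjusted p = 0.943, edgeR), so no difference between genotypes was called.

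**Figure D5:**
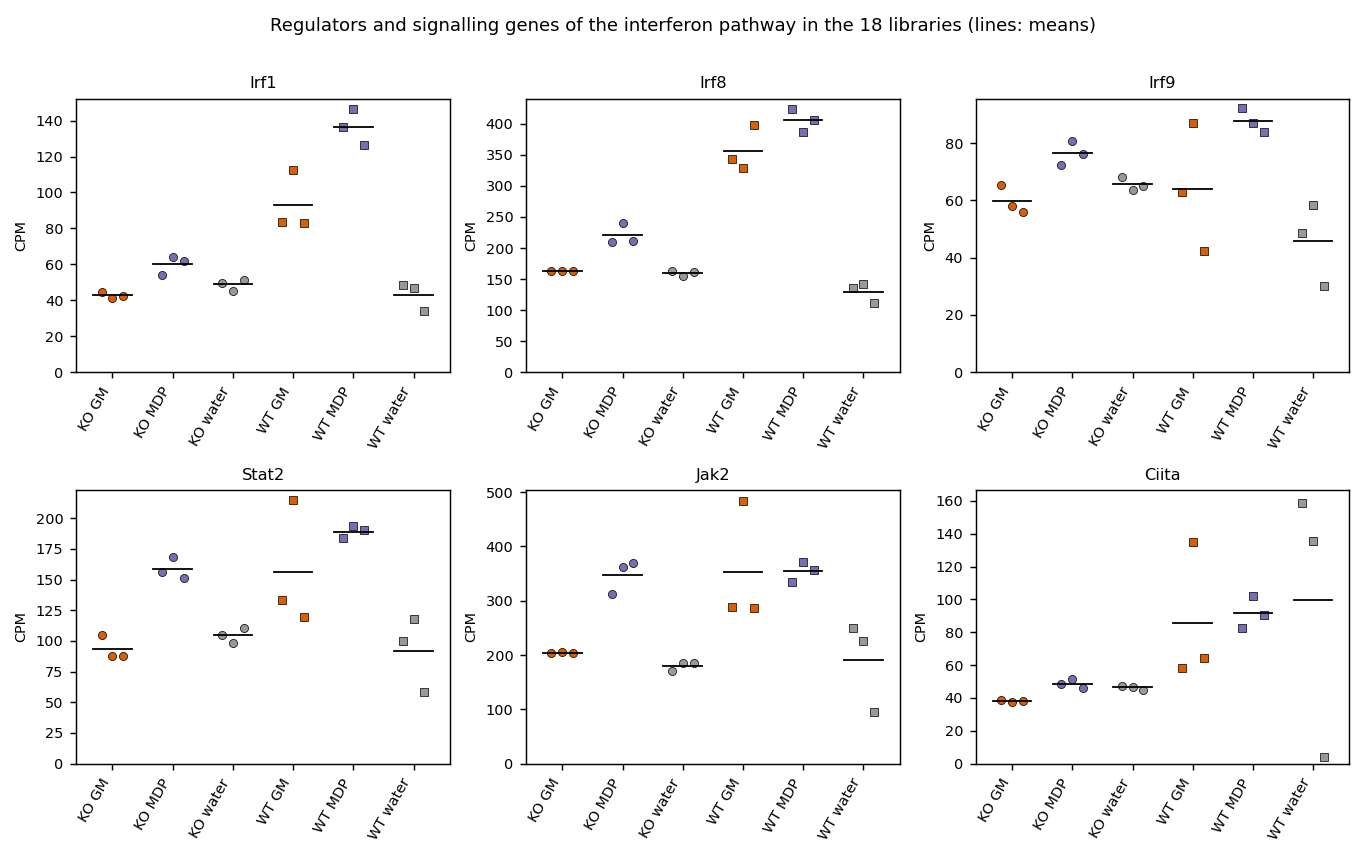
TMM-scaled CPM (y axis, linear, from 0) of Irf1, Irf8, Irf9, Stat2, Jak2 and Ciita in all 18 libraries by group (x axis), with circles for KO, squares for WT and a line at the mean. Irf1 lies at 126.6 to 146.4 CPM in WT MDP and 33.81 to 48.28 CPM in WT water, and Ciita in WT water is at 158.7 and 135.5 CPM in 2 libraries and 4.316 CPM in the other.

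WT water replicate 3 had the lowest level in its group of Tap1, Tap2, Psmb8, Psmb9, Psmb10 and Nlrc5 and the highest of H2-K1, H2-D1 and B2m. Ciita, named after its values were seen, had 158.7, 135.5 and 4.316 CPM in the 3 WT water libraries. Markers of other cells also differed between libraries. The summed level of 8 stroma markers was 2.334 to 7.918 CPM over all KO libraries. It was 48.34 to 82.75 CPM in WT GM, 13.33 to 19.08 CPM in WT MDP, and 278.4, 250.7 and 51.52 CPM in WT water libraries, with at most 1 of the 8 at 0 in any library. With MDP in WT, 4 of the 7 tested stroma markers fell, where 3.72% of all genes fell. The summed level of 8 dendritic cell markers was 656.2 to 798.8 CPM in KO GM, 771.2 to 872.7 CPM in KO MDP and 705.7 to 732.3 CPM in KO water libraries. It was 1466 to 1995 CPM in WT GM, 1329 to 1373 CPM in WT MDP and 1226 to 1612 CPM in WT water libraries, with 0 to 3 of the 8 at 0. With MDP, 3 of the 6 tested dendritic markers rose and 2 fell in KO, where 9.17% of all genes rose and 10% fell. In WT 2 rose and 2 fell, where 4.62% of all genes rose and 3.72% fell. Of the dendritic markers, Ccr7 rose by 1.501 ± 0.14 in KO (adjusted p = 0.0021) and by 2.73 ± 0.29 in WT (adjusted p = 0.00456, edgeR). The 2 that fell were the same in both genotypes. Itgax changed by -0.36 ± 0.04 in KO (adjusted p = 4.12e-08) and by -1.17 ± 0.12 in WT (adjusted p = 0.00438, edgeR). Clec9a changed by -0.48 ± 0.14 in KO (adjusted p = 0.00962) and by -0.97 ± 0.18 in WT (adjusted p = 0.0258, edgeR). Siglech and Xcr1 reached at most 0.1063 and 0.3234 CPM. The summed level of the 8 neutrophil markers was 218.8 to 280.6 CPM in KO GM, 159.8 to 247.8 CPM in KO MDP and 75.46 to 142.7 CPM in KO water libraries. It was 12.14 to 37.42 CPM in WT GM, 51.68 to 72.08 CPM in WT MDP, and 6.205, 7.002 and 49.91 CPM in WT water libraries, with 1 to 4 of the 8 at 0 in any library. All MDP libraries were thus above all water libraries of their genotype, as were all KO GM libraries. Of the 5 tested neutrophil markers, Camp rose with MDP in KO (1.33 ± 0.35, adjusted p = 0.0044), against 9.17% of all genes. Ngp rose with MDP in WT (2.75 ± 0.57, adjusted p = 0.0347, edgeR), against 4.62% of all genes. Elane, Ly6g and Retnlg reached at most 0.1795, 0.2442 and 0.06468 CPM. T and NK cell markers summed to at most 7.315 CPM and B cell markers to at most 6.991 CPM in any library. The part of these cells in the changes of the 10 genes was not tested.

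Pearson correlations of log2 CPM for the 45 pairs of the 10 genes over the 18 libraries ran between -0.502 (H2-D1 and Psmb9) and 0.951 (Psmb8 with Nlrc5 and with Tap1), with a median of 0.669, and 13 pairs were above 0.8. The libraries share groups and include WT water replicate 3, so these values are a description. Among 8747 genes with a mean of at least 10 CPM, the pattern of Nlrc5 was most like those of Mgat4a (r = 0.958), Uba7 (0.955), Irgm2 (0.953), Stat2 (0.946) and Clec2d (0.943). That of Psmb9 was most like Gm12250 (0.975), Rcsd1 (0.968), Sp110 (0.961), Gm21188 (0.958) and Parp9 (0.955). That of H2-K1 was most like Spsb1 (0.924), Gucd1 (0.902), Samsn1 (0.892), Adora2a (0.892) and Ramp3 (0.89).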

How the data were processed

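Poly(A)-selected directional libraries were made from total RNA of 18 macrophage samples. The authors deposited a table of read counts per gene and a table of FPKM, made with HISAT2 2.0.5 and featureCounts 1.5.0-p3 on GRCm39, per the submitters' processing notes. Counting settings are not given in the sources used here. The deposited counts were tested with edgeR 4.0.16 (R 4.3.3, limma 3.58.1) by the 2-sided quasi-likelihood test, with the 6 libraries compared in each fit, or 12 for differences between genotypes. Genes were filtered on all 18 libraries (filterByExpr, minimum count 10, leaving 15450 genes), with TMM factors from all 18. P-values were adjusted by Benjamini-Hochberg over all genes tested, at 0.05. Alternatives were DESeq2 1.42.0, voom with a weight per group, size factors by relative log expression, no filter, a replicate block, 1 spread for all 18 libraries and leaving out each library. The fits were checked on simulated counts. FPKM was used as the authors deposited it, for levels and ratios between genes. The 10 genes and the other gene lists were chosen with earlier results of these data known. One gene of the transcription factor list is not reported here. All 10 genes are named. Genes of a list were named from up to 4 per comparison with the smallest adjusted p, any others after their values were seen. Not every such gene is named, and some comparisons of a list are not described. Examples left out above are Jak2 for GM against MDP and Hspa5 for GM against water, both in KO. In no comparison did same-numbered libraries deviate together in every pair (r over 0.1), so the numbers were not used as pairs. For GM against water in WT, r was -0.228, 0.615 and 0.581 for numbers 1, 2 and 3. With 3 libraries per group this check cannot settle whether samples are paired.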

Additional observations from a re-analysis of the deposited data

Results flagged for a closer look

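Outside the cell marker lists, the response to a compound differed between genotypes for Tapbp with MDP and for 7 other listed genes. Each was a direct test of the difference (KO response minus WT response, edgeR). Over all genes, 0.939% differed in either direction with GM and 7.97% with MDP. Tapbp with MDP differed by -0.5 on the log2 scale. With GM, the differences were -1.43 for Irf8, -1.3 for Irf1, -1.09 for Tapbpl, -1 for H2-T22 and -1.49 for H2-Q4. With MDP, they were -1.37 for Irf1, -1.18 for Irf8, -0.83 for Tapbpl, -0.5 for H2-T23 and 0.39 for Calr. H2-Q4 with GM was called in 8 of 18 alternatives, H2-T23 with MDP in 12 and Calr with MDP in 4. Of the dendritic cell markers, Ccr7 differed with GM (-1.87) and with MDP (-1.23), and Itgax with MDP (0.82). Of the stroma markers, Pdgfra (3.54) and Dcn (2.76) differed with MDP.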

How the results depend on the processing

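Of the alternatives tried on the single values of the 10 genes and the heavy chain sum, 1203 kept direction and side of the threshold, 38 lost a call, 57 gained one and 22 changed sign, each of the 22 on leaving out 1 library. No change that passed in the comparison as reported changed sign. Fitting 1 spread to all 18 libraries changed the counts of the 10 genes called to 0 (MDP against water in KO and GM against MDP in KO), 5 (MDP against water in WT), 3 (GM against water in WT), 3 (KO against WT under water) and 1 (GM response). Over all genes it called 729 for GM and 3810 for MDP against water in WT, 3001 for GM against MDP in WT, 3 for GM and 427 for MDP against water in KO, 242 for GM against MDP in KO, 5110 for KO against WT under water and 287 for the GM response. The WT groups were more spread than the KO groups, so this fit takes a smaller spread for WT and a larger one for KO. DESeq2 and voom each called 4 of the 10 for MDP in WT, adding Psmb8, and 8 for GM against MDP in KO, adding Nlrc5. DESeq2 called 2 of the 10 for GM in WT and 1 each for GM in KO, for KO against WT and for the GM response. Over all genes it called 356 for GM and 2457 for MDP in WT, 2618 for GM against MDP in WT, 3593 for KO against WT, 313 for the GM response and 1962 for the MDP response. Without the filter 2 of the 10 passed for GM in KO and 8 for GM against MDP in KO. With voom 1 passed for GM in KO and 2 for the MDP response. The cause of these changes was not tested further.

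Whether the replicate numbers pair the samples is not settled, and the main fits do not use them. With a replicate block, 0 of the 10 genes passed for MDP in WT and 1 for GM in KO. Among the listed genes the report names, cell markers aside, the MDP calls of Stat2, Psmg4 and 6 heavy chains in WT were not made with the block. Nor were the MDP call of Psme4 in KO, the H2-M2 call for KO against WT and the MDP response difference of Calr. Over all genes the block gave 166 calls for GM and 387 for MDP against water in WT, and 855 for KO against WT under water, and no other count moved by over 1.5 times.

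Leaving out 1 library at a time, genes called ran from 0 to 288 for GM and 187 to 5479 for MDP against water in WT, 209 to 4478 for GM against MDP in WT, 329 to 7225 for KO against WT, 71 to 557 for the GM response and 646 to 4044 for the MDP response. The highest count came without WT water replicate 3, or without WT GM replicate 2 for GM against MDP. Of the 10 genes, 0 to 8 passed for MDP in WT, 0 to 7 for GM against MDP in WT, 0 to 2 for GM in KO, 0 to 9 for KO against WT, 0 to 1 for the GM response and 1 to 6 for the MDP response. Log2 changes whose range without 1 library spanned or reached 0 were those of H2-D1 (-0.287 to 0.188) and Tap2 (-0.025 to 0.246) for MDP in WT, and H2-K1 (-0.146 to 0.001), Tap2 (-0.054 to 0.153) and Nlrc5 (-0.517 to 0.085) for GM against MDP in WT. In KO they were Tap1 for GM (-0.056 to 0.047) and H2-D1 for MDP (0 to 0.097). For KO against WT they were Psmb8 (-0.074 to 0.288), Psmb10 (-0.327 to 0.276) and Nlrc5 (-0.207 to 0.227). For the responses they were H2-D1 with GM (-0.42 to 0.056), and H2-D1 (-0.15 to 0.325), Tap2 (-0.148 to 0.125) and the heavy chain sum (-0.184 to 0.169) with MDP.

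Limits on the 10 genes are the 3 libraries per group, the wide WT water and WT GM groups, and the sharing of reads among class I heavy chains and between Tap1 and Psmb9. The lowest level of any of the 10 genes in any library was 9.075 CPM (Psmb9).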
